A study of Mus musculus with 24 samples.

Results

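Wild type mouse lung 10 days after lipopolysaccharide (LPS) was compared with wild type control lung, 3 arrays against 3, taken by sample title and making up 6 of the 24 arrays of the series. LPS, the endotoxin of Gram-negative bacteria, is widely used to injure the lung of mice. The day 10 group was whole lung of male C57BL/6 mice, wild type, aged 6 to 8 weeks, sampled 10 days after LPS. The control group was whole lung of male C57BL/6 wild type mice of the same ages, labelled as controls with no time given. Further groups used for comparison were wild type lung 4 days after LPS, Rag-1 null lung 10 days after LPS and Rag-1 null control lung, 3 arrays each, of the same strain, sex and ages. Rag-1 null mice cannot assemble antigen receptor genes and so lack mature T and B cells. No source used here states the LPS dose or route, what the controls received, the hour at which lungs were taken or how many animals stand behind an array. A p-value therefore measures only how far these samples spread, and that spread may be technical.

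Each array was an Illumina beadchip of 24046 probes, of which 13544 were above background on at least 3 arrays and were tested; they named 9605 genes, each read from its brightest probe. Levels are log2 of background-corrected, quantile normalized bead signal. A probe passed at a Benjamini-Hochberg adjusted p under 0.05 in limma, and every adjusted p below is from that fit. Differences are log2 values, day 10 minus control unless stated, ± SE with 3 arrays a group. In whole lung RNA, fewer cells of a type and less RNA per cell cannot be told apart.

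Inhaled or injected endotoxin is known to bring neutrophils into the alveoli within hours to days, followed by monocyte-derived macrophages that clear debris, and by repair of epithelium, endothelium and matrix. Fibroblasts and smooth muscle cells make the interstitial collagens and the elastin of the alveolar wall. The lung also runs a circadian clock, in which the CLOCK and BMAL1 (Arntl) proteins activate the Per, Cry, Nr1d1, Dbp and Tef genes, PER and CRY proteins inhibit that activation, and NR1D1 represses Arntl.

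The 3 day 10 arrays had 11375, 11542 and 11619 probes above background and median raw signals of 34.3, 34.9 and 37.2, against 10181, 10006 and 9663 probes and 47.9, 42.6 and 46.0 on the control arrays. Within-group correlations across probes were at least 0.989 at day 10 and at least 0.966 in controls, so the controls varied more. The 3 wild type arrays of day 1 correlated less (at least 0.858). They were part of the normalization, the background filter and the choice of the brightest probe. In the fit they enter only through its shared estimate of the spread. With them left out of the fit alone, 879 probes passed in place of the 278 given below. Genes of heart muscle, which can enter a lung sample with the pulmonary veins, averaged 7.05, 7.31 and 6.61 over 14 genes on the day 10 arrays, against 7.33, 5.78 and 5.38 on control replicates 1, 2 and 3. Genes of airway secretory cells averaged 8.43, 8.08 and 7.78 over 16 genes at day 10, against 8.41, 6.62 and 6.20. Control replicates 2 and 3 thus lay below the other arrays for both lists. Defining lung genes were bright on all 6 arrays: the surfactant gene Sftpc sat at the top of the scale, at 13.92, on each, and the club cell gene Scgb1a1 at 13.48 to 13.63. The Rag1 probe was above background on 2 of 3 day 10 arrays and on 0 of 3 control arrays, near background in every group, and checked nothing about genotype.

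At day 10 elastin, 6 of 9 collagen genes, 5 of 18 macrophage genes and the clock gene Arntl were higher than in control lung. The clock-driven genes Dbp, Per2, Nr1d1 and Tef and 5 of 14 B cell genes were lower. In all, 278 probes (2.05% of those tested) passed, 128 higher (0.945%) and 150 lower (1.11%). By gene, 91 were higher (0.947%) and 104 lower (1.08%), and the median over all genes was 0.003. Of the 9605 genes, 4860 were above control, whether or not they passed. The difference exceeded 2-fold for 35 of the higher probes and 17 of the lower ones. Each of the 3 slides held 1 array of every group, and 277 of the 278 moved 1 way on all 3. That agreement is no separate support, because the probes were picked on the same 6 arrays. Of the probes that passed, 62 of the 128 higher and 81 of the 150 lower ones were above background on all 6 arrays. Of the higher ones 43 were above it on no control array, and of the lower ones 40 on no day 10 array. Of all 13544 tested probes 8375 were above it on all 6 arrays, 2372 on no control array and 1106 on no day 10 array. Probes near background in 1 group were thus more frequent among those that passed. Leaving out 1 array of either group gave 62 to 236 probes, the lowest without day 10 replicate 1 (62), 3 (76) or 2 (125), and 190 without control replicate 2. Another scaling changed the balance: the share higher was 46.0%, against 87.0% of 583 probes with median centring, which moved the median of all probes by 0.182, and 25.1% of 1381 in the authors' value table. Of 56 named genes that passed, 12 passed under every alternative run that tested them: Arntl, Clec4n, Col1a2, Ctsk, Dbp, Fcrl1, Gal, Itgax, Nr1d1, Per2, Slc26a4 and Spon2. Arntl, Fcrl1, Gal and Slc26a4 were tested in 22 of the 23 runs. They were not above background on all 6 arrays, which 1 run required.

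The largest fall among the named genes was that of a clock-driven gene. No hour of collection is stated for any group. For clock genes the effects of that hour and of day 10 cannot be told apart, and neither was tested alone. Dbp, a transcription factor driven directly by the clock, was at 6.30, 5.49 and 5.81 at day 10, against 10.75, 8.80 and 8.44 in controls. Every day 10 array was below every control array, and control replicate 1 was the highest. Dbp fell by 3.47 ± 0.52 on the log2 scale (11.1-fold lower, adjusted p = 0.00173), and the differences within the 3 slides were -4.45, -3.31 and -2.64. Per2, a repressor of the clock, was at 6.36, 6.13 and 6.32 at day 10, against 8.86, 7.67 and 8.12 in controls, and fell by 1.94 ± 0.26 (adjusted p = 0.000281). Nr1d1, which encodes REV-ERB alpha, was at 5.53, 5.01 and 4.88 at day 10 and at 7.20, 6.68 and 6.44 in controls, and fell by 1.64 ± 0.28 (adjusted p = 0.00455). Its second probe gave -0.93. Neither gene overlapped between the groups.

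Tef, a relative of Dbp, was at 8.28, 7.96 and 8.01 at day 10, against 10.62, 9.32 and 9.01 in controls. It fell by 1.57 ± 0.37 (adjusted p = 0.0272), with no overlap between the groups, although its second probe gave -0.32. The Tef call was lost without any 1 of the day 10 arrays, without control replicate 1 and with median centring (highest adjusted p = 0.12). Arntl, the partner of CLOCK, moved the other way, at 7.15, 6.89 and 7.10 at day 10 against 4.44, 5.95 and 5.71 in controls. Arntl rose by 1.68 ± 0.29 (adjusted p = 0.00455), by 2.71, 0.94 and 1.39 within the slides, and was above background on 2 of 3 control arrays. Control replicate 1 stood apart in this set, with the highest Dbp, Per2, Nr1d1 and Tef and the lowest Arntl; without it, 3 clock genes still fell and Arntl still rose.

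Promoter sequences are shown for the 2 of these genes whose windows matched a clock motif. RefSeq windows (GRCm38.p6, 250 bases before to 50 after a transcript start) were found for 13 of the 16 tested clock genes, 21 windows in all, and Per2, Bhlhe40 and Csnk1d had none. They were searched on both strands for the E-box CACGTG, bound by CLOCK and BMAL1, the D-box TTANGTAA, bound by DBP and TEF, and the half-site AGGTCA, shared by REV-ERB and ROR proteins. None of the 3 overlaps another in the windows printed. Capitals mark the E-box in Tef, plus strand, chr15:81802423-81802722 and chr15:81811164-81811463, and the half-site in Arntl, plus strand, chr7:113207261-113207560.
Tef window 1: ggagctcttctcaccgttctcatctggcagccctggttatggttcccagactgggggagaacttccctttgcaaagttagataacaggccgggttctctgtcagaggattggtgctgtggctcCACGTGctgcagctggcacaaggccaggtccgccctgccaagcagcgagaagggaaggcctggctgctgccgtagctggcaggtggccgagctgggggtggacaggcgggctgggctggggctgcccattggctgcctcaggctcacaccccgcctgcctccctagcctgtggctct
Tef window 2: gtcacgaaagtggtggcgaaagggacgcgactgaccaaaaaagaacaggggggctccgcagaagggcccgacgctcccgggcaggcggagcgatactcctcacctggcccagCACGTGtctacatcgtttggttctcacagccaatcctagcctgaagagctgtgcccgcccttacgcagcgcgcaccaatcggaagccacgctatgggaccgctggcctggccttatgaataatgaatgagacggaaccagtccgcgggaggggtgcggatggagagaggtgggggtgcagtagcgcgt
Arntl window 2: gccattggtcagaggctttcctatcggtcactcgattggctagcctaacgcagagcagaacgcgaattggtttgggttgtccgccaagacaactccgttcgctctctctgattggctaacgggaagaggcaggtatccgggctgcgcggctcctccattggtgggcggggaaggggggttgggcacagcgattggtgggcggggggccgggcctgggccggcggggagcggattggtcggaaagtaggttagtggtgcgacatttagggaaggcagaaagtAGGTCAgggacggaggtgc
Over all 32851 windows in the table the E-box is in 7.2%, the D-box in 2.3% and the half-site in 16.3%. Among the 13 clock genes with a window the E-box was found for 2 (Tef and Per1) and the D-box for 1 (Per3). The half-site was found for 5 (Per1, Nr1d2, Arntl, Clock and Nfil3). These counts are by gene, with 21 windows over the 13 genes, and the shares are by window, so the 2 are not comparable. The Dbp and Nr1d1 windows held none of the 3 strings, which says only that these letters are not within those 300 bases.

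Of the 16 clock genes tested, 4 fell (1.08% over all genes), 1 rose (0.947%) and 11 did not pass, and the median was -0.38. On 9 of them every day 10 array lay below every control array, which held for 13.7% of all genes, and on 1 every array lay above, against 14.6% of all genes. Per1, another repressor, was at 4.71, 5.18 and 5.76 at day 10 and at 6.57, 6.45 and 6.47 in controls, a difference of -1.28 ± 0.40 that did not pass (adjusted p = 0.0975). The nuclear receptor gene Rora differed by -0.67 ± 0.18 (adjusted p = 0.0519) and Cry2 by -0.60 ± 0.22 (adjusted p = 0.147), each without overlap. Arntl2 was above background on 0 of 3 day 10 arrays and 2 of 3 control arrays and did not pass (adjusted p = 0.057). Nfil3, a repressor at D-boxes, differed by 0.62 ± 0.30, Nr1d2 by 0.41 ± 0.35 and Clock itself by 0.13 ± 0.17, with groups that overlapped for all 3. The second Nr1d2 probe went the other way, at -0.40. Bhlhe40, Csnk1d and Csnk1e differed by -0.18 to -0.15, with a sign that changed between alternatives, and Per3 was above background on 0 of 3 day 10 arrays and 1 of 3 control arrays.

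**Figure D1:**
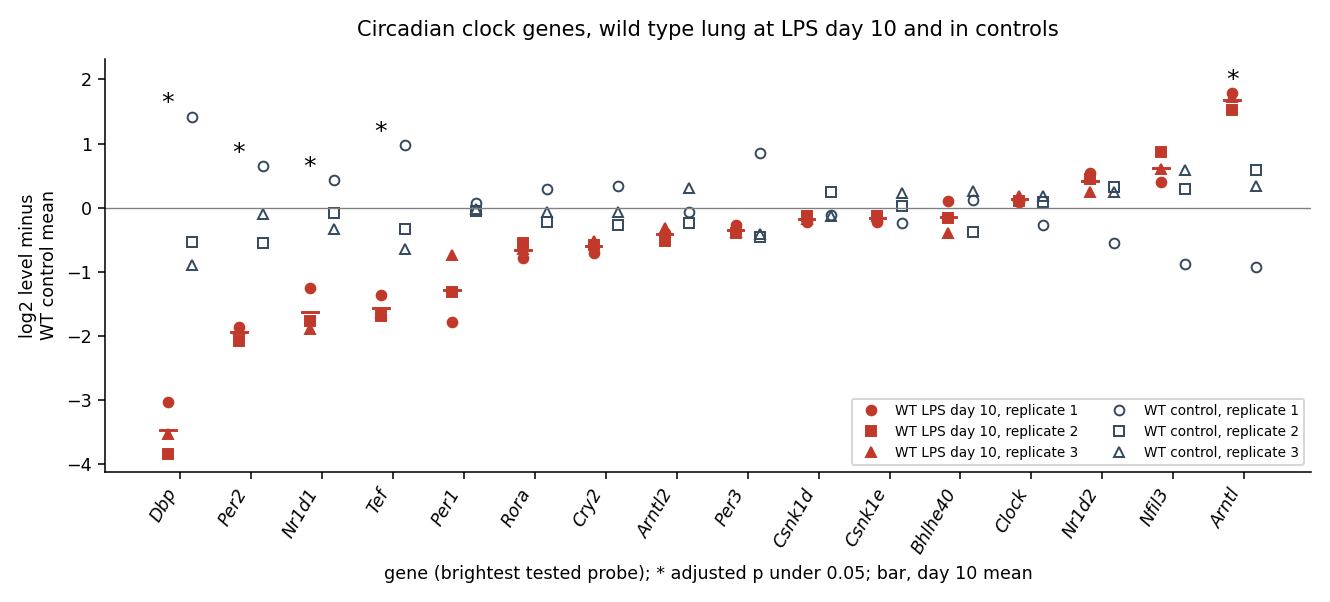
Level of the 16 tested clock genes on each array, as log2 level minus the mean of the 3 wild type controls; filled red symbols are day 10 arrays, open symbols controls, the symbol shape gives the replicate and an asterisk an adjusted p under 0.05. Dbp is lowest at day 10, at a difference of -3.47, Arntl is highest at 1.68, and control replicate 1 lies at the far side of the controls for both.

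Genes known to follow the clock or glucocorticoids gave 3 falls among those named. Of these, Klf15 is in neither list given below and was named as 1 of the 12 largest falls. Klf9, a transcription factor gene of this kind, was at 9.25, 9.62 and 9.32 at day 10, against 10.28, 10.25 and 10.40 in controls, and fell by 0.91 ± 0.20 (adjusted p = 0.0171). Zbtb16, a zinc finger gene induced by glucocorticoids, was above background on 0 of 3 day 10 arrays and on all 3 control arrays, at least 1.45-fold lower at day 10 (adjusted p = 0.0253). Klf15, known for the same hormone response, was at 5.20, 5.32 and 5.30 at day 10 and at 6.17, 6.38 and 6.51 in controls, and fell by 1.08 ± 0.23 (adjusted p = 0.0154). Neither Klf9 nor Klf15 overlapped between the groups. Of 15 glucocorticoid-induced genes 2 fell and none rose (median -0.36), and of 11 clock output genes 1 fell and none rose (median -0.45). Over all genes 1.08% fell. The mean of the glucocorticoid list was 7.17, 7.43 and 7.42 at day 10, against 7.10, 7.82 and 7.97 in controls, so control replicate 1 lay below every day 10 array. None of the list fell without control replicate 3 (median -0.11) or without day 10 replicate 1 or 3, and 3 fell without control replicate 1 (median -0.55). The calls of Klf9, Zbtb16 and Klf15 were each lost without day 10 replicate 1 or 3 or control replicate 3 (highest adjusted p = 0.0984, for Zbtb16), and that of Klf9 also with median centring.

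Elastin and the interstitial collagens rose. Eln, which encodes tropoelastin, was at 9.87, 9.82 and 10.04 at day 10 and at 7.09, 7.34 and 8.30 in controls. The 3 day 10 arrays were close together and all above the controls. Eln gave the largest rise of any named gene, 2.33 ± 0.50 (5.04-fold, adjusted p = 0.0169), and differed by 2.78, 2.48 and 1.74 within the slides. Its call was lost without day 10 replicate 1 or 3 or control replicate 1 or 2 (highest adjusted p = 0.0701), while the difference stayed between 2.09 and 2.70 under all alternatives run.

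Both chains of type I collagen and the type III chain, the main interstitial collagens, rose. Col1a2 was at 7.98, 8.16 and 8.01 at day 10, against 6.84, 5.68 and 6.53 in controls, and rose by 1.70 ± 0.32 (adjusted p = 0.0102). Col3a1 was at 8.76, 8.38 and 8.86 at day 10, against 7.26, 6.10 and 7.58 in controls, and rose by 1.68 ± 0.39 (adjusted p = 0.0253), with a second probe at 0.25. Col1a1 was at 8.14, 8.20 and 8.22 at day 10, against 7.44, 6.54 and 7.03 in controls, and rose by 1.18 ± 0.26 (adjusted p = 0.018). None of the 3 overlapped between groups, and control replicate 2 was the lowest array for each. The beaded filament chains Col6a1 and Col6a2 both rose by 0.72, with SEs of 0.17 and 0.16, although 1 of the other Col6a1 probes gave -0.06. Col14a1, a fibril-associated collagen, rose by 0.43 ± 0.11 (adjusted p = 0.0488) and was above background on 1 of 3 control arrays. Its call held under 9 of 22 alternatives.

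In total 6 of 9 collagen genes rose, none fell, and the median was 0.72, with all 9 above control and 8 without overlap. Over all genes 0.947% rose, 4860 of 9605 were above control, and 14.6% had every day 10 array above every control array. Col8a1, a short-chain collagen, differed by 0.70 ± 0.19 (adjusted p = 0.0562), Col5a1 by 0.37 ± 0.23 and Col16a1 by 0.33 ± 0.23. The count rested on single arrays: 1 of 9 collagens passed without day 10 replicate 1 or 3 or without control replicate 2, and 2 of 9 without day 10 replicate 2, with medians of 0.59 to 0.75. The count was 5 of 9 without background correction, with cyclic loess or in the authors' value table, and 7 of 9 with median centring. Of the 12 stable calls listed above Col1a2 was the only collagen. In the wild type control heart muscle and airway genes were high on replicate 1 and low on replicates 2 and 3. Within slide 1, where the heart muscle list differed by -0.30, the collagen list had a median of 0.65, against 0.93 and 0.58 on slides 2 and 3. The part of heart and airway tissue in the collagen values was not tested.

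Of the 16 elastic fibre genes tested, 1 rose, 1 fell and 14 did not pass, and the median was 0.22. Over all genes 0.947% rose and 1.08% fell, so 1 in a list of this size is close to those shares. Mfap5, a microfibril glycoprotein, was at 7.39, 7.37 and 7.38 at day 10, against 6.56, 5.91 and 6.37 in controls, a difference of 1.10 ± 0.30 that did not pass (adjusted p = 0.0555). Mfap4, another microfibril protein, differed by 1.04 ± 0.41, the latent TGF-beta binding protein gene Ltbp2 by 0.92 ± 0.41 and the crosslinking enzyme gene Loxl1 by 0.72 ± 0.20 (adjusted p = 0.065), and all 3 were without overlap. Fbn2, fibrillin 2, fell by 0.55 ± 0.10 (adjusted p = 0.00976) and was above background on 1 of 3 day 10 arrays and all 3 controls. Fbln1 and Efemp1 differed by 0.50 ± 0.22 and 0.49 ± 0.20, and Ltbp1, Ltbp4, Loxl2 and Mfap2 by -0.04 to 0.07, with a sign that changed between alternatives.

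**Figure D2:**
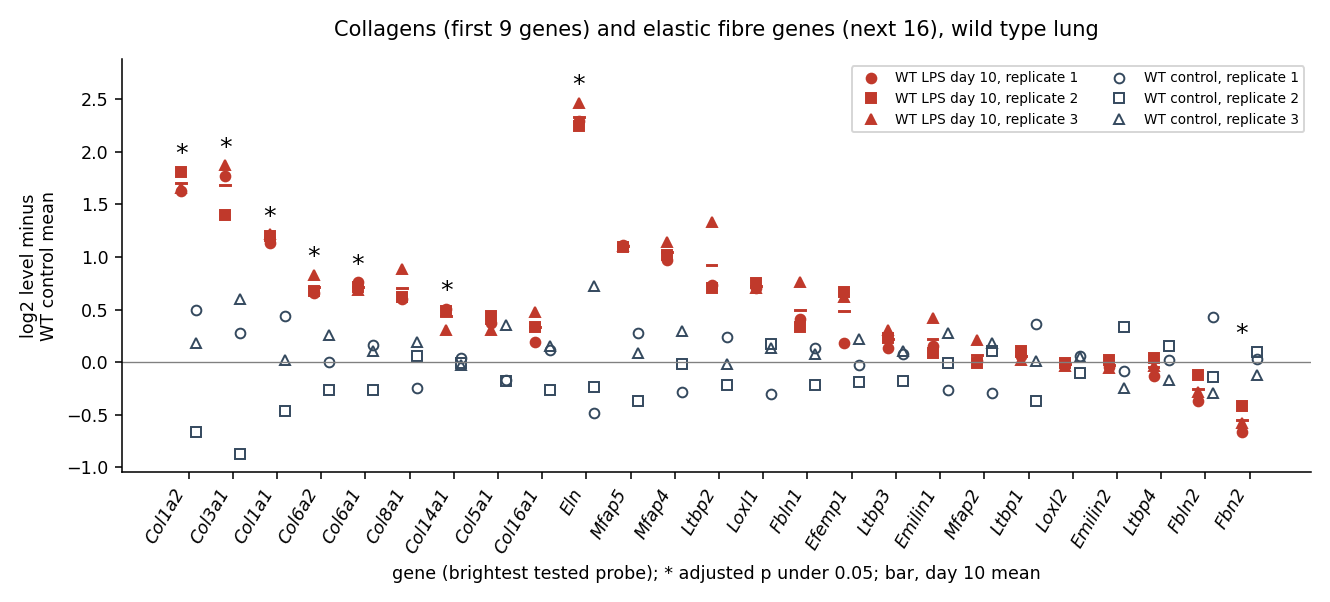
Level of 9 collagen genes and then 16 elastic fibre genes on each array, as log2 level minus the wild type control mean; filled red symbols are day 10 arrays, open symbols controls, and an asterisk marks an adjusted p under 0.05. The day 10 arrays of Eln sit at 2.33 on average, and 6 of the 9 collagens carry an asterisk.

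Spon2, a secreted matrix protein that binds bacterial LPS, was at 9.91, 10.19 and 10.13 at day 10, against 6.98, 8.63 and 8.88 in controls. It rose by 1.91 ± 0.37 (adjusted p = 0.0124) and was 1 of 21 matricellular genes to pass. Among 21 matrix proteases and inhibitors 2 rose, 1 fell and the median was 0.006. Over all genes 0.947% rose and 1.08% fell, so none or 1 in a list of this size is close to those shares. Mmp2, the gelatinase of stromal cells, rose by 1.21 ± 0.28 (adjusted p = 0.0266), and Mmp12, the macrophage elastase, by 1.01 ± 0.20 (adjusted p = 0.0147) with 1 of 3 control arrays above background. Timp3, a matrix-bound inhibitor of metalloproteases, was at 10.04, 10.28 and 10.36 at day 10 and at 10.79, 10.82 and 10.80 in controls, and fell by 0.58 ± 0.13 (adjusted p = 0.018). Its second probe gave -0.04, and the call was lost with cyclic loess, median centring and the authors' value table (highest adjusted p = 0.376). Of 18 basement membrane genes and of 19 genes that modify or fold collagen none passed, with medians of 0.28 and 0.02.

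Of the 18 macrophage genes, 5 rose, against 0.947% of all genes. Ctsk, the collagen-degrading cathepsin K, was at 8.18, 8.28 and 7.94 at day 10, against 7.005, 6.57 and 6.95 in controls. Itgax, which encodes CD11c, was at 6.34, 6.57 and 6.45 at day 10, against 5.04, 5.28 and 5.40 in controls. The groups did not overlap for either gene, and Ctsk rose by 1.30 ± 0.20 (adjusted p = 0.00187) and Itgax by 1.21 ± 0.21 (adjusted p = 0.00576). The lectin receptor gene Clec4n rose by 1.14 ± 0.22 (adjusted p = 0.0102) and Adgre1, which encodes the macrophage antigen F4/80, by 0.94 ± 0.19 (adjusted p = 0.0132), with its second probe at 0.05. None of the 18 fell, and the median was 0.83. On 14 of them every day 10 array lay above every control array, which held for 14.6% of all genes. The mean level of the list was 7.19, 7.21 and 7.16 at day 10, against 6.40, 6.53 and 6.64 in controls.

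Ctss, a lysosomal cysteine protease that processes antigen, was at 9.27, 9.05 and 9.20 at day 10, against 7.39, 7.31 and 8.07 in controls. It rose by 1.58 ± 0.35 (adjusted p = 0.0187) and was the 1 of 20 lysosome genes to pass, although all 20 were above control (median 0.28). Over all genes 4860 of 9605 were above control and 0.947% rose. Chil3 (Ym1) and Chil1, chitinase-like proteins of alternatively activated macrophages and epithelium, rose by 1.49 ± 0.36 and 0.64 ± 0.16 (adjusted p = 0.0302 and 0.032), and the lectin gene Clec10a by 1.06 ± 0.27. Those were the 3 of 15 alternative activation genes that rose (median 0.28), against 0.947% of all genes. On 6 of the 15 every day 10 array lay above every control array, against 14.6% of all genes. On 3 every day 10 array lay below, against 13.7%. Arg1 and Retnla, markers of alternative activation, differed from control by 0.11 and 0.04 and did not pass (adjusted p = 0.955 and 0.982). Of 13 alveolar macrophage genes only Ear10, an eosinophil-associated ribonuclease gene, rose, by 1.61 ± 0.35 (adjusted p = 0.018). Its relative Ear3 rose by 1.35 ± 0.34 (adjusted p = 0.0387); the Ear genes are near-identical copies, so their probes may share signal. Ear10, Ear3, Ctss and Chil3 each lost the call without any 1 day 10 array (highest adjusted p = 0.15, for Ear3).

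Genes of MHC class II, which presents peptide to CD4 T cells, gave 3 rises among 15 tested, against 0.947% of all genes. H2-Aa was at 11.44, 11.48 and 11.52 at day 10, against 10.43, 10.29 and 10.54 in controls. H2-Eb1 was at 10.60, 10.47 and 10.44 at day 10, against 9.53, 9.46 and 9.35 in controls. H2-Ab1 was at 11.12, 11.30 and 11.19 at day 10, against 10.30, 10.35 and 10.26 in controls. All 3 were without overlap, rising by 1.06 ± 0.22, 1.06 ± 0.23 and 0.90 ± 0.23 (adjusted p = 0.0156, 0.0173 and 0.0419), and they were the 3 of 15 class II genes to pass (median 0.46). The class I gene H2-K1 rose by 0.86 ± 0.20 and Clec9a, a receptor of cross-presenting dendritic cells above background on 0 of 3 control arrays, was at least 1.15-fold higher. Each of these calls was lost without at least 1 of the day 10 arrays.

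Among the alveolar epithelial and endothelial genes tested 1 rose and 1 fell, close to the shares over all genes (0.947% higher and 1.08% lower). Abca3, the lipid transporter of lamellar bodies in alveolar type 2 cells, was at 7.05, 6.98 and 7.05 at day 10, against 5.99, 6.17 and 6.63 in controls, and rose by 0.76 ± 0.17 (adjusted p = 0.0243). It was the 1 of 22 type 2 genes to pass. Of these, 21 were above control, against 4860 of 9605 over all genes, and the median was 0.45. Of 13 type 1 genes none passed, and the median was -0.18, or 0.11 with median centring and 0.085 in the value table. Of 30 endothelial genes only Clec1a passed, at 7.33, 7.36 and 7.08 at day 10 and 8.08, 8.31 and 7.78 in controls, and it fell by 0.80 ± 0.20 (adjusted p = 0.0414). The endothelial median was -0.22, with 24 genes below control, or 0.05 with median centring, where the median of all genes was 0.207; Clec1a did not pass there, with cyclic loess or in the value table (highest adjusted p = 0.183). The general endothelial gene Pecam1 differed by -0.22 ± 0.33, with a sign that changed between alternatives.

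**Figure D3:**
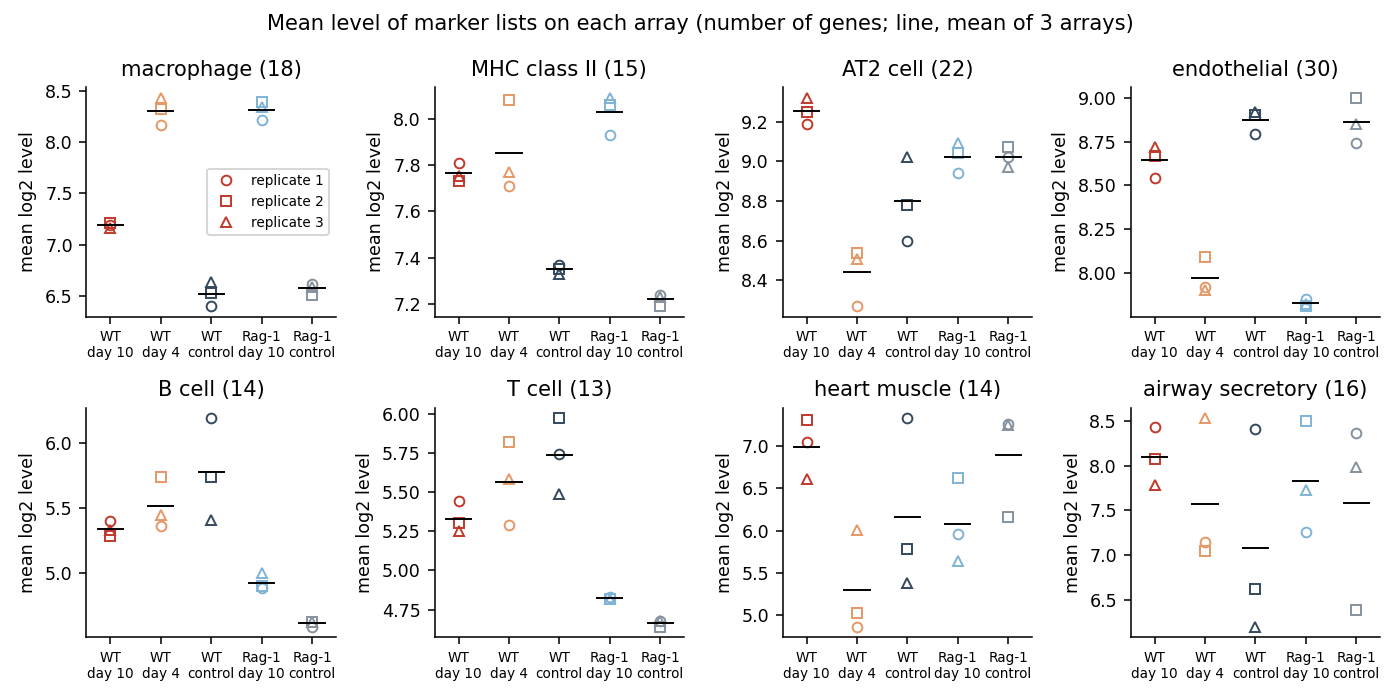
Mean log2 level of 8 marker lists on each array of wild type lung at day 10, day 4 and in controls and of Rag-1 null lung at day 10 and in controls; symbols give the replicate and lines the mean of 3 arrays. Macrophage and class II lists at day 10 lie above the wild type controls with no overlap, whereas heart muscle and airway secretory lists vary most between control arrays.

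Of the lymphocyte genes, 5 of 14 of B cells and 1 of 13 of T cells fell, against 1.08% of all genes. Fcrl1, an Fc receptor-like protein of B cells, was at 4.80, 4.40 and 4.97 at day 10, against 6.33, 5.97 and 5.72 in controls. It fell by 1.28 ± 0.14 (adjusted p = 4.02e-05), without overlap, and was above background on 2 of 3 day 10 arrays. Cd79b, of the B cell receptor, was at 6.42, 6.40 and 6.37 at day 10, against 8.03, 7.22 and 6.67 in controls, and fell by 0.91 ± 0.22 (adjusted p = 0.0369). The adaptor gene Bank1 fell by 0.70 ± 0.15 and the coactivator gene Pou2af1 by 0.66 ± 0.16. None of the 14 B cell genes rose and their median was -0.43; within the slides it was -0.75, -0.37 and -0.23. Without control replicate 1, where the list averaged 6.19 against 5.74 and 5.41 on the other controls and 5.40, 5.29 and 5.33 at day 10, only 1 of the 14 fell, and the same count was left without any 1 of the day 10 arrays.

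Cd3d, of the T cell receptor complex, was at 6.16, 5.89 and 5.72 at day 10, against 6.86, 6.87 and 6.35 in controls, and fell by 0.77 ± 0.20 (adjusted p = 0.0496). It was the 1 of 13 T cell genes to pass (median -0.35), and its call was lost under 13 of 23 alternatives. The partner gene Cd3e differed by -0.44 ± 0.22 and did not pass. The neutrophil gene S100a8 was at 9.65, 9.38 and 8.55 at day 10, against 8.53, 12.05 and 10.43 in controls, a difference of -1.14 ± 0.70 with groups that overlapped. Of 21 neutrophil genes Chil3, also made by macrophages, was the 1 that passed, against 0.947% of all genes higher. The list ran from 5.75 to 7.10 over the control arrays alone.

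Further large rises were of single genes. Slc26a4, the anion exchanger pendrin of airway epithelium, was at 6.63, 6.48 and 6.66 at day 10, against 4.60, 4.94 and 4.81 in controls, and rose by 1.81 ± 0.24 (adjusted p = 0.000277). Control replicate 1, with airway genes as high as at day 10, had the lowest Slc26a4. The part of airway content in the Slc26a4 values was not tested. Saa3, an acute phase serum amyloid, was at 8.54, 7.29 and 6.30 at day 10 and at 5.19, 6.34 and 5.56 in controls. It rose by 1.68 ± 0.39 (adjusted p = 0.0266), the groups overlapped, and the call was lost without day 10 replicate 1 or 2 or control replicate 1 or 3 (highest adjusted p = 0.159). Cfb, complement factor B, was at 8.60, 8.43 and 8.34 at day 10, against 6.96, 6.70 and 7.04 in controls, and rose by 1.55 ± 0.32 (adjusted p = 0.0151). Bub1b, a mitotic checkpoint kinase, was above background on 0 of 3 control arrays and at least 1.49-fold higher. It was the 1 of 29 proliferation genes to pass, against 0.947% of all genes higher. Hspa5, the chaperone BiP, rose by 1.09 ± 0.28.

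Among falls, Gal, the neuropeptide galanin, was above background on all 3 control arrays and on 0 of 3 day 10 arrays, and was at least 2.01-fold lower (adjusted p = 3.75e-05). Ddx6, an RNA helicase of mRNA decay, was at 7.66, 7.94 and 7.57 at day 10, against 9.20, 8.89 and 8.77 in controls, and fell by 1.23 ± 0.25 (adjusted p = 0.0151), with a second probe at -0.56. Rgcc, a cell cycle regulator, was at 7.88, 7.98 and 8.02 at day 10, against 8.66, 9.46 and 9.59 in controls, and fell by 1.28 ± 0.25 (adjusted p = 0.0124). Csrnp1, Bex2 and Map3k6 fell by 1.40 ± 0.36, 1.18 ± 0.31 and 1.11 ± 0.28 (adjusted p = 0.0436, 0.0488 and 0.0387), and each lost the call under 10 or more alternatives. The early response gene Klf6 fell by 0.78 ± 0.17 and the chaperone gene Dnajb1 by 0.94 ± 0.24. Fga, a fibrinogen chain above background on 0 of 3 day 10 arrays, was at least 1.39-fold lower.

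Several other lists held no gene that passed, against 0.947% of all genes higher and 1.08% lower, so none or 1 in a list of this size is close to the share over all genes. There was none among 37 cytokine and chemokine genes (median 0.11), 21 type I interferon-induced genes (median 0.10), 20 lipid handling genes (median 0.39), 12 fibroblast genes (median -0.02) or 25 oxidative stress genes (median -0.06). Of 28 acute phase genes 2 rose and 1 fell (median 0.13), and of 22 interferon gamma-induced genes H2-K1 rose (median 0.08). The 14 heart muscle genes were all above control, against 4860 of 9605 over all genes, and none passed. Their median was 0.62, made up of -0.30, 1.47 and 0.86 within the slides.

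**Figure D4:**
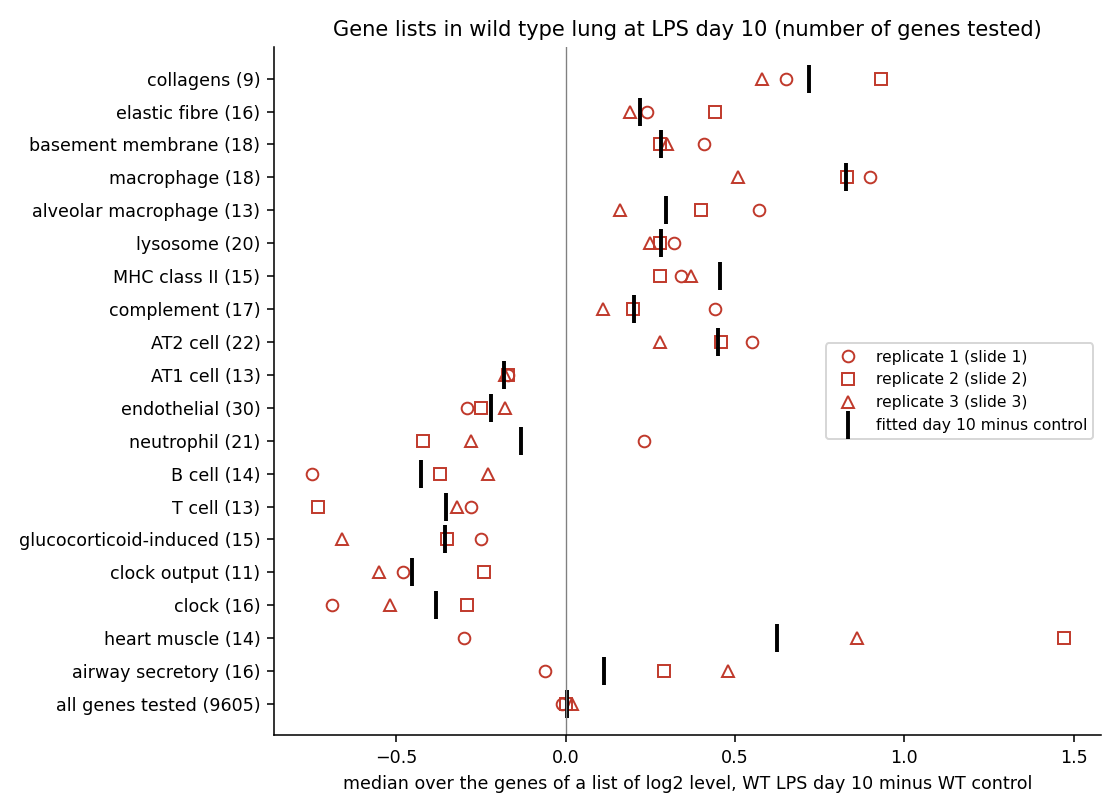
Median over the genes of each list of the log2 level at wild type day 10 minus wild type control, from the fit (black bar) and within each slide (open symbols), with the number of genes tested in parentheses. The collagen and macrophage lists lie above 0.5 on all 3 slides, the clock list below -0.25, and the heart muscle list lies on both sides of 0.

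Between day 10 and day 4 in wild type lung 2025 probes passed (15%), and by gene 898 were higher at day 10 (9.35%) and 738 lower (7.68%). Saa3 was at 8.54, 7.29 and 6.30 at day 10 against a mean of 13.33 at day 4, the largest fall at 5.96 ± 0.39 (adjusted p = 1.81e-09). The chemokine genes Cxcl9 and Ccl3 fell, with differences of -4.42 ± 0.42 and -3.31 ± 0.48. So did Arg1 and Retnla, markers of alternative activation, at -3.78 ± 0.49 and -3.59 ± 0.49, and the protease inhibitor gene Timp1, at -3.61 ± 0.43. Of the lists, 14 of 18 macrophage, 25 of 29 proliferation, 16 of 22 interferon gamma and 17 of 37 cytokine genes fell, while 16 of 30 endothelial and 12 of 22 type 2 cell genes rose. Among matrix genes Eln differed by 0.18 ± 0.50, Col1a2 by 0.09 ± 0.32 and Col3a1 by 0.24 ± 0.39, and 1 of 9 collagens, Col8a1, rose (0.93 ± 0.19). Other lists rose from day 4 in part, with 5 of 16 elastic fibre genes, 7 of 18 basement membrane genes and 7 of 12 fibroblast genes higher at day 10. Dbp and Per2 fell from day 4 as well, by 2.01 ± 0.52 and 1.66 ± 0.26, and Arntl rose by 1.62 ± 0.29, whereas Nr1d1 and Tef differed by -0.14 ± 0.28 and -0.38 ± 0.37.

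The largest rises from day 4 were of Myl4, Myl7 and Actc1, muscle genes of the heart's atria, at 3.24 ± 0.86, 3.06 ± 0.80 and 3.01 ± 0.72, and of the complement gene Hc (3.12 ± 0.32), the retinoic acid hydroxylase gene Cyp26b1 (2.76 ± 0.57) and the paraoxonase gene Pon1 (2.56 ± 0.30). The heart muscle list averaged 7.05, 7.31 and 6.61 at day 10, against 4.86, 5.02 and 6.01 at day 4, and its part in these values was not tested.

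The day 10 response differed between wild type and Rag-1 null lung for 206 probes (1.52%), with 82 genes higher in wild type (0.854%) and 88 lower (0.916%). The response of macrophage genes was lower in wild type for 9 of 18, with list medians of 0.83 in wild type and 1.89 in Rag-1 null lung. The Ctsk response was 1.30 ± 0.20 in wild type and 2.86 ± 0.20 in Rag-1 null lung, a difference of -1.57 ± 0.28 (adjusted p = 0.00677). For endothelial genes it was higher in wild type for 5 of 30, with medians of -0.22 in wild type and -1.01 in Rag-1 null lung. The response of proliferation genes was lower in wild type for 5 of 29, with medians of 0.07 in wild type and 1.07 in Rag-1 null lung. No clock or collagen gene passed this test; the Dbp response was -3.47 ± 0.52 in wild type and -2.64 ± 0.52 in Rag-1 null lung, and that of Eln 2.33 ± 0.50 in wild type and 1.74 ± 0.50 in Rag-1 null lung. Class II genes did not pass either, with H2-Aa at 1.06 ± 0.22 in wild type and 0.93 ± 0.22 in Rag-1 null lung, which does not show that the responses were alike. B cell genes were lower in wild type for 2 of 14, Fcrl1 and Cd79b. In Rag-1 null lung Fcrl1 was above background on 0 of 3 arrays in either group, and Cd79b averaged 5.42 at day 10 and 4.99 in controls.

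**Figure D5:**
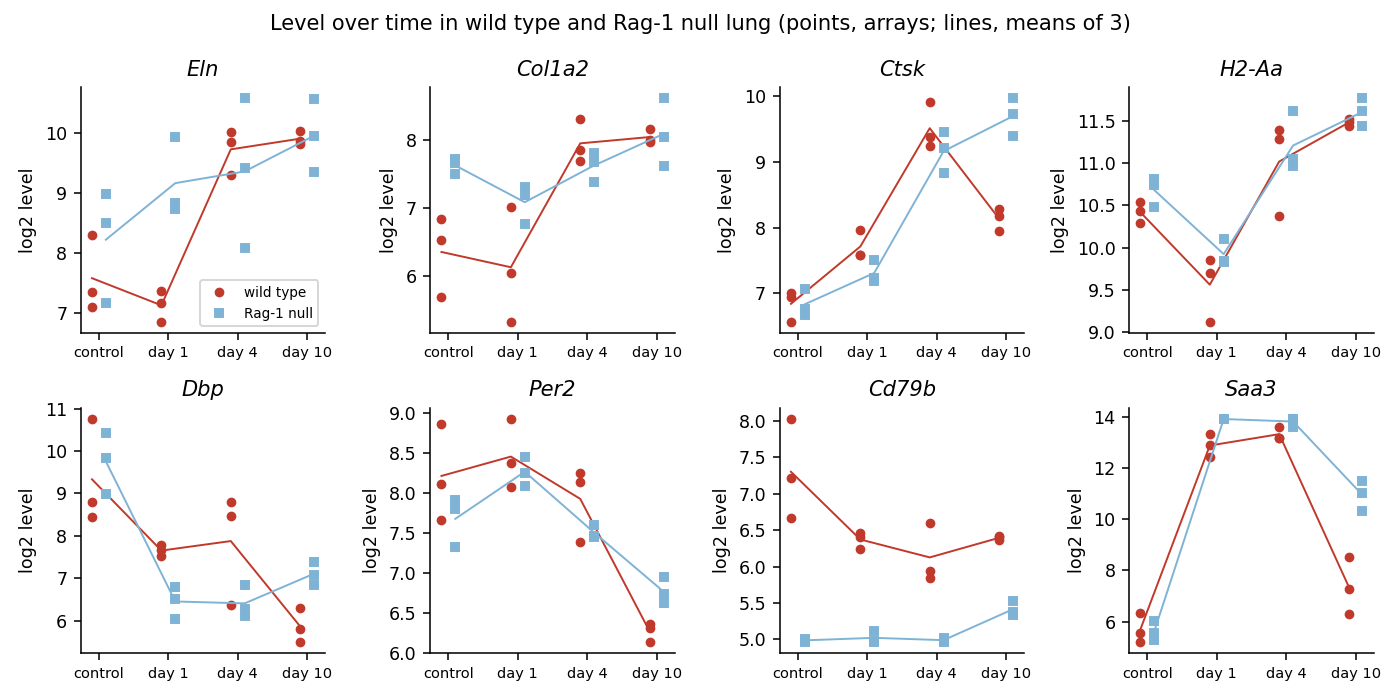
Log2 level of 8 genes in control lung and at days 1, 4 and 10 after LPS in wild type (red circles) and Rag-1 null lung (blue squares), with lines through the means of 3 arrays. At day 10 in wild type lung Eln, Col1a2 and H2-Aa stay above control, Ctsk lies between its day 4 and control levels, and Dbp and Per2 are at their lowest.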

How the data were processed

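Whole lung RNA was measured on 24 Illumina beadchip arrays, 3 slides of 8, with 1 array of each of 8 groups a slide. A group kept its position from slide to slide, and the effects of position and of group cannot be told apart. The deposited scanner table gives bead signal intensity, not normalized, and a detection score per probe as a fraction, where a high score means detected. The detection p used here was 1 minus that score. The authors' value table holds log2 signal minus each array's mean, for 13029 probes; this was found by setting it against the scanner values, where each column matched 1 array within 0.000543 and no other array within 1.42; column medians ran from -0.546 to -0.3714. Arrays were given to samples by that match, because the file's title line disagreed with it for 22 of them. The scanner software and how probes were chosen for the value table were not given in the sources used here.

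Intensities were background-corrected from the detection p, quantile normalized and log2 transformed with neqc (offset 16) in limma 3.58.1 (R 4.3.3, statmod 1.5.0). Probes with a detection p under 0.05 on at least 3 arrays were kept (13544). A mean was fitted for each of 8 groups over all 24 arrays, with eBayes and a trend, and p-values were Benjamini-Hochberg adjusted over all tested probes. Of the tested probes 11658 had 1 gene symbol from the platform annotation and 1886 had none. A probe at background throughout a group has only a bound there: the bright group's mean over the higher of that probe's own signal and the lowest signal above background on each array. The scripts were tested on simulated data. Python 3.11.15, pandas 2.3.3 and matplotlib 3.10.9 made lists and figures. No depth applies to arrays, where the number of arrays limits the precision.

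Named genes were the 12 largest rises and 12 largest falls that passed, up to 4 passing members of each list by smallest adjusted p, all tested clock, collagen and elastic fibre genes, anchor genes of cell types, and the 6 largest in each direction of the other 2 comparisons. The comparison, members and lists were chosen with earlier results of these data known. Same-numbered arrays share a slide; the correlations of their deviations between day 10 and control were 0.201, 0.069 and 0.254, so the numbers are not shown to pair the samples. Alternatives covered background correction, scaling, detection filter, fitted groups, weights, prior, slide as block, probes per gene and leaving out arrays; 2 were chosen after seeing the data.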

Additional observations from a re-analysis of the deposited data

Results flagged for a closer look

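The response to LPS at day 10 (day 10 minus control) differed between wild type and Rag-1 null lung, by the interaction test in limma, for 206 probes. Among named genes the wild type response was lower for Saa3 (-3.65), Cxcl9 (-2.89), Ccr7 (-2.21), the lectin receptor genes Clec4d (-3.04), Clec4e (-2.43) and Clec4n (-1.29), and the macrophage genes Gpnmb (-2.80), Mmp12 (-1.63), Ctsk (-1.57) and Adgre1 (-1.09), as log2 differences of wild type minus Rag-1 null. It was also lower for pendrin, Slc26a4 (-1.78), for the B cell genes Cd79b (-1.33) and Fcrl1 (-1.26), and for Fbn2 (-0.64).

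The wild type response was higher for the endothelial genes Sox18 (1.80), Tmem100 (1.90) and Ednrb (1.95), for the growth factor gene Bmp6 (1.75), and for Tril (1.80) and Slc7a10 (1.94). It was higher too for the elastic fibre genes Efemp1 (1.41) and Ltbp4 (1.26) and for the heart muscle gene Myh6 (1.00). No formal test for a single outlying array was run within groups of 3.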

How the results depend on the processing

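None of the 56 named genes that passed changed direction under any alternative run. Of all 112 named genes, 20 that did not pass crossed 0, and so did the medians of 4 of 21 lists, those of type 1 cells, endothelium, matrix proteases and proliferation. For day 10 against control (278 probes) the count was 132 with a stricter detection filter, 583 with median centring (507 higher, 76 lower), 1381 in the authors' value table (347 higher, 1034 lower), 879 without the wild type day 1 group and 986 with array weights. Chosen after seeing the data, 105 passed among probes above background on all 6 arrays, and 575 without wild type day 1 replicate 1 and control replicate 1. For day 10 against day 4 (2025) it was 3126 without day 1 and 3718 with weights; median centring left 30.6% higher, against 53.5%. For the genotype difference (206) it was 361 with median centring (85.9% higher, against 49.0%), 799 in the value table (36.4% higher), 700 with only the groups compared, 614 without day 1 and 1695 with weights. Leaving out 1 array gave 62 to 663 probes for day 10 against control, 1126 to 2951 against day 4, the lowest without day 4 replicate 1, and 67 to 487 for the genotype difference. With the replicate number as a block the counts were 366, 2083 and 215, and of the 56 named genes that passed 1 (Bex2) lost its call. Another scaling or background correction removed the call of 19 of the 56. The cause of these changes was not tested. Probes near background limit low genes.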

Other observations

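Immunoglobulin kappa variable genes, chosen here after their values were seen, gave 3 rises at day 10, where 5 of 14 B cell genes fell. These were the 3 of 22 immunoglobulin probes tested that passed in limma. The largest rise, of an Igkv4 gene, gave levels of 7.01, 5.95 and 5.67 at day 10, against 4.999, 5.09 and 4.87 in controls, a difference of 1.23 ± 0.20 (adjusted p = 0.00284). The other 2, of the same family, were above background on 0 of 3 control arrays and were at least 1.16-fold and 1.21-fold higher (adjusted p = 0.0085 and 0.00442). Of 20 kappa variable probes 17 were above background on all 3 day 10 arrays and 5 on all 3 control arrays. Over all tested probes the shares were 76.3% and 63%, and 2.05% of all probes passed. A probe was tested if above background on at least 3 of the 24 arrays, which the 3 day 10 arrays alone could meet. The counts of 17 and 5 are thus partly set by that filter and are no separate support for a rise. Kappa variable genes are near-identical copies, so which of them a probe reads is uncertain.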
